A study of Homo sapiens with 4 samples.

Results

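The genes of MHC class I antigen presentation were followed in MOLM-13, an established cell line of monoblastic type from a human acute myeloid leukaemia, with a KMT2A-MLLT3 fusion. The 9 members were chosen by symbol from the 27800 symbols of the expression table: the heavy chains HLA-B, HLA-C, HLA-E and HLA-F, the light chain B2M, the peptide transporter subunits TAP1 and TAP2, the loading factor TAPBP (tapasin) and the transcriptional activator NLRC5. All 9 were present. Cells of both groups received lentivirus with CRISPR-Cas9, either with the vector labelled EV or with sgKAT6A, a guide against the histone acetyltransferase gene KAT6A, and 2 RNA-seq libraries were made per group. The sources used here do not give the guide sequence, the time of harvest or whether cells were pooled or cloned. The study set out to ask how loss of KAT6A alters the transcriptional program of these cells, and the comparison below asks it of the class I pathway. Nothing in the labels says that replicates were cultured or transduced separately, and p-values therefore reflect the spread of these libraries alone.

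MHC class I molecules show peptides from the inside of a cell to CD8+ T cells and are read by inhibitory receptors of natural killer cells. The polymorphic heavy chain pairs with the invariant light chain beta-2-microglobulin in the endoplasmic reticulum, where tapasin holds it at the TAP transporter until a peptide made by the proteasome is bound. Interferons raise the whole pathway through factors such as IRF1 and NLRC5, which act on promoter elements of its genes, and monocytes carry it at high levels.

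Promoters of 7 of the 9 members were found in the RefSeq promoter table (GRCh38.p14), and those of the classical heavy chains HLA-B and HLA-C and of their light chain B2M are shown so that the promoters of chains that pair can be compared. The sequences run 5′ to 3′ from 250 bases before the RefSeq start to the base before the gene begins in GENCODE 29. Capitals mark matches to the motifs searched on both strands, which were GGGANTNCC (NF-kB-like), the core of an interferon-stimulated response element (ISRE, bound by IRF factors, written as GAAA, any 2 bases and GAAA again), TGACG (the core of a cyclic AMP response element, as in the X2 box) and CCAAT (as in the Y box, written ATTGG on the other strand).
HLA-B, chr6:31357189-31357429, minus strand: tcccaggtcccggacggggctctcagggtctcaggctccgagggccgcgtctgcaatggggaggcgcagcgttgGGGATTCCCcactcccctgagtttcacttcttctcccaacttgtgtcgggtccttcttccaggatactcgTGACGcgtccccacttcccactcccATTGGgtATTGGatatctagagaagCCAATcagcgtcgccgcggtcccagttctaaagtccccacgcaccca
HLA-C, chr6:31272131-31272342, minus strand: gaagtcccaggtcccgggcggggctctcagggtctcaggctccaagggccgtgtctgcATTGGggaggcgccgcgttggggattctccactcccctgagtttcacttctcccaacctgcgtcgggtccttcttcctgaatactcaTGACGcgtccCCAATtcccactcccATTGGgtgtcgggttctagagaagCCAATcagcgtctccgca
B2M, chr15:44711267-44711486, plus strand: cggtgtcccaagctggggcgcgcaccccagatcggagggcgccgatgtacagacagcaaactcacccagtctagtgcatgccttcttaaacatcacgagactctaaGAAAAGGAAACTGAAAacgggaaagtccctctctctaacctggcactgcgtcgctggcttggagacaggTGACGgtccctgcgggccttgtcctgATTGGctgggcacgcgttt
In these letters HLA-B and HLA-C both have 1 TGACG match followed by CCAAT matches on both strands, and HLA-B alone of the 3 has the NF-kB-like match, which reads on both strands over the same bases. B2M has a run of 2 overlapping ISRE core matches, GAAAAGGAAACTGAAA, at bases -144 to -129. TAP1 has a run of the same kind on the other strand, TTTCGATTTCGCTTTC, at bases -134 to -119 of the more upstream of its 2 starts in the table, and TAPBP has GAAAGTGAAAGTGAAA at bases -20 to -5.

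Over the full 250 bases before the start, the ISRE core was found in 5 of the 7 member promoters (HLA-F, B2M, TAP1, TAP2 and TAPBP) and in 3.02% of all 35116 promoters of that length. CCAAT was found in 5 of 7 against 32.0%, TGACG in 4 of 7 against 21.2%, and GGGANTNCC in 2 of 7 (HLA-B and TAPBP) against 3.75%. TTCNNNGAA, the gamma-activated site of interferon signalling, was in 0 of 7 against 6.57%. A match describes the letters only, sites that differ from the letters searched were not counted, and binding was not measured.

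The members lie on 3 chromosomes in GENCODE 29 on GRCh38, the build named in the submitters' processing notes. HLA-F (29722775 to 29738528), HLA-E (30489467 to 30494205), HLA-C (31268749 to 31272130, minus strand), HLA-B (31269491 to 31357188, minus strand), TAP2 (32821833 to 32838780, minus strand), TAP1 (32845209 to 32853978, minus strand) and TAPBP (33299694 to 33314387, minus strand) are on chromosome 6 in the MHC. B2M is on chromosome 15 (44711487 to 44718877) and NLRC5 on chromosome 16 (56989485 to 57083531). The annotated HLA-B gene overlaps most of the HLA-C gene on the same strand, and PSMB9 (32844136 to 32859585) covers TAP1 on the opposite strand. The sources used here do not say whether the counting used strand, so reads from the overlap of PSMB9 and TAP1 may not be told apart.

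KAT6A, the targeted gene, was at 16.2 and 16.7 TPM with EV and 12.2 and 10.8 TPM with sgKAT6A, so the groups did not overlap (log2 difference -0.48 ± 0.13 SE, adjusted p = 0.784 by limma). TPM are length-corrected shares of a library with a total of 1000000. Values of a group are given in the order replicate 1, replicate 2. TPM keep no read depth, which was unknown, and no counting interval was computed. All 7 markers of the MOLM-13 monoblastic state (CD33, FLT3, MPO, LYZ, HOXA9, MEIS1 and CSF2RA) were above 1 TPM in every library. The B cell markers summed to 0.743 to 1.61 TPM and the platelet markers to 0.132 to 0.241 TPM, with MS4A1 and PF4 at 0 throughout. T cell markers summed to 6.09 to 13.1 TPM, nearly all of it CD3D, with CD2 at 0 in every library, and NK cell markers to 9.12 to 11.3 TPM, mostly NCAM1. The globin genes HBA1 and HBB lay between 38.6 and 201 TPM. In sgKAT6A replicate 2 ribosomal RNA (RNA18SN5) took 340 TPM, against 10401 to 13751 TPM in the other libraries.

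B2M was by far the most abundant member and HLA-F the least. Mean levels over the 4 libraries were 1470 TPM for B2M, 225 TPM for HLA-E, 119 TPM for HLA-B, 87.8 TPM for TAPBP, 39.1 TPM for HLA-C, 23.5 TPM for TAP1, 19.1 TPM for NLRC5, 14.1 TPM for TAP2 and 0.796 TPM for HLA-F. The ranges over libraries overlapped between HLA-B and TAPBP, between TAP1 and NLRC5 and between NLRC5 and TAP2. Within a library HLA-B was above TAPBP and TAP1 above NLRC5 in 4 of 4, and NLRC5 was above TAP2 in 3 of 4. B2M ranked between 85 and 118 among all symbols of a library. The test took genes averaging 1 TPM or more, which 8 of the 9 members did and HLA-F did not.

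**Figure D1:**
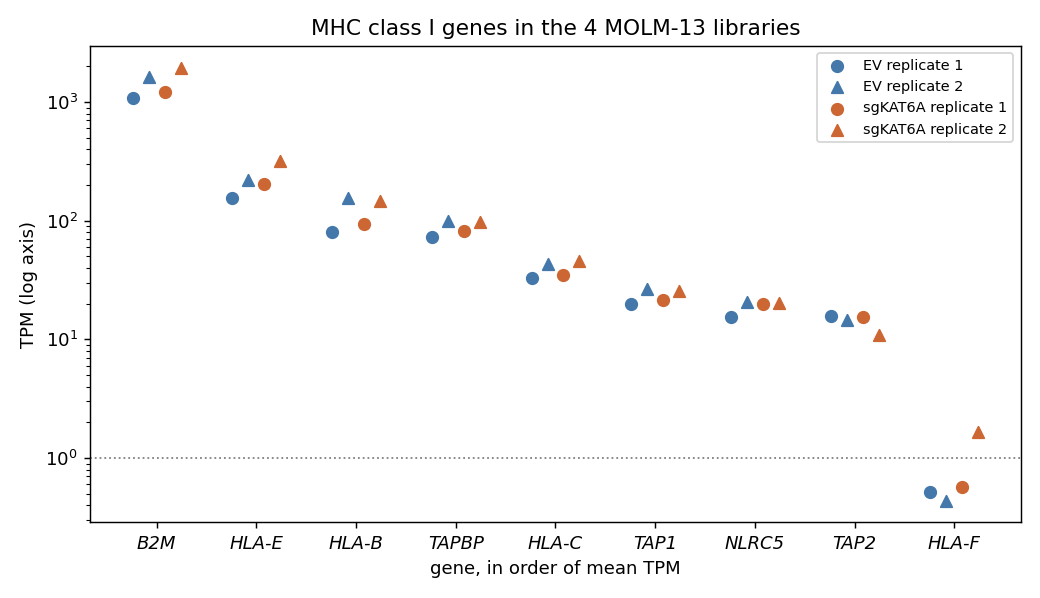
TPM of the 9 members (log axis) in order of mean level, 1 point per library, with EV in blue, sgKAT6A in orange, circles for replicate 1 and triangles for replicate 2. The dotted line is 1 TPM. B2M lies at 1080 TPM or more in every library and HLA-F under 1 TPM in all but sgKAT6A replicate 2.

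No member passed the test between sgKAT6A and EV, and 0 of the 8 tested had groups that did not overlap. Their median log2 difference was 0.08, with 7 above 0 and 1 (TAP2) below, and their adjusted p-values by limma ran from 0.784 to 0.976. Over all 12603 genes tested the median was -0.02 and 37.6% had groups without overlap, 14.4% higher and 23.2% lower in sgKAT6A. The share of all genes that passed was 0%, and 3.64% had an unadjusted p under 0.05, against 0 of the 8 members. With 2 libraries per group an exact two-sided permutation test cannot give a p under 0.333. Members and genes outside them were compared by these counts only.

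Of the 8 members tested, HLA-E had the largest difference. HLA-E, a non-classical chain that displays leader peptides of other class I chains to the NKG2A receptor, was at 157 and 219 TPM with EV and 206 and 317 TPM with sgKAT6A. Replicate 2 was the higher library in each group, and sgKAT6A replicate 1 fell between the EV libraries. The log2 difference of HLA-E was 0.46 ± 0.30 (SE, 95% interval -0.36 to 1.28, adjusted p = 0.784 by limma). Leaving out 1 library moved it to 0.15 (sgKAT6A replicate 2), 0.22 (EV replicate 1), 0.70 (EV replicate 2) or 0.77 (sgKAT6A replicate 1). After quantile normalization the HLA-E groups did not overlap (difference 0.52), whereas with the deposited values and with the other scalings they did.

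HLA-B and HLA-C, the classical chains that present peptides to T cells and also bind killer cell receptors, showed smaller differences. HLA-B was at 80.2 and 155 TPM with EV and 93.5 and 147 TPM with sgKAT6A, so the sgKAT6A values lay inside the EV range. Its log2 difference was 0.07 ± 0.42 (SE), with an interval of -1.09 to 1.24. HLA-C was at 33.2 and 42.8 TPM with EV and 35.2 and 45.4 TPM with sgKAT6A, a difference of 0.08 ± 0.21 (SE), with an interval of -0.50 to 0.67. Between replicates of a group HLA-B differed 1.93-fold in EV and 1.58-fold in sgKAT6A, and HLA-C 1.29-fold in both. Both signs turned when EV replicate 1 or sgKAT6A replicate 2 was left out, to -0.40 and -0.25 for HLA-B and to -0.096 and -0.097 for HLA-C.

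HLA-F, a non-classical chain held mostly inside the cell, was at 0.516 and 0.438 TPM with EV and 0.569 and 1.66 TPM with sgKAT6A. Both sgKAT6A values were above both EV values, at levels where the precision of TPM is unknown. Without the filter on low values its log2 difference was 0.47 ± 0.30 (SE), with an adjusted p of 0.838 by limma.

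B2M, the light chain shared by all class I molecules, was at 1080 and 1640 TPM with EV and 1205 and 1954 TPM with sgKAT6A. The groups overlapped, with replicate 1 the lower library in both. Its log2 difference was 0.21 ± 0.34 (SE), with an interval of -0.74 to 1.15. Leaving out 1 library moved it to -0.096 (EV replicate 1), -0.14 (sgKAT6A replicate 2), 0.51 (EV replicate 2) or 0.55 (sgKAT6A replicate 1).

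The subunits of the peptide transporter did not vary together. TAP1 was at 20.0 and 26.7 TPM with EV and 21.4 and 25.8 TPM with sgKAT6A, with both sgKAT6A values inside the EV range (0.02 ± 0.20 SE). TAP2, its partner in the heterodimer, was at 15.7 and 14.5 TPM with EV and 15.4 and 10.9 TPM with sgKAT6A (-0.21 ± 0.20 SE, interval -0.77 to 0.36). It was the only member whose lowest library was sgKAT6A replicate 2, and without that library its difference was 0.02. The ratio of TAP1 to TAP2 was 1.27 and 1.84 in EV and 1.39 and 2.37 in sgKAT6A, higher in replicate 2 of each group. Of the 31-base words in GENCODE 29 transcripts of TAP2, 31.7% also occur in transcripts of another annotated gene, AL669918.1. The TAP2 level may therefore depend on how reads were divided, if the annotation used, which was not given, held both genes.

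Tapasin and the class I activator varied less between groups than between the EV libraries. TAPBP was at 72.5 and 98.8 TPM with EV and 82.6 and 97.2 TPM with sgKAT6A (0.08 ± 0.21 SE, interval -0.49 to 0.65). NLRC5, which is recruited to class I promoters and drives their transcription, was at 15.5 and 20.6 TPM with EV and 19.8 and 20.4 TPM with sgKAT6A (0.16 ± 0.18 SE, interval -0.34 to 0.65). The NLRC5 level differed 1.33-fold within EV and 1.03-fold within sgKAT6A. Its groups did not overlap after median-of-ratios scaling, quantile normalization or rescaling to protein-coding genes (differences 0.19, 0.18 and 0.22), and the sign turned to -0.04 without EV replicate 1. The differences of TAP1 and TAPBP likewise turned to -0.18 and -0.14 when EV replicate 1 was left out, and to -0.11 and -0.04 when sgKAT6A replicate 2 was. They were larger, at 0.22 and 0.30, when EV replicate 2 was left out.

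**Figure D2:**
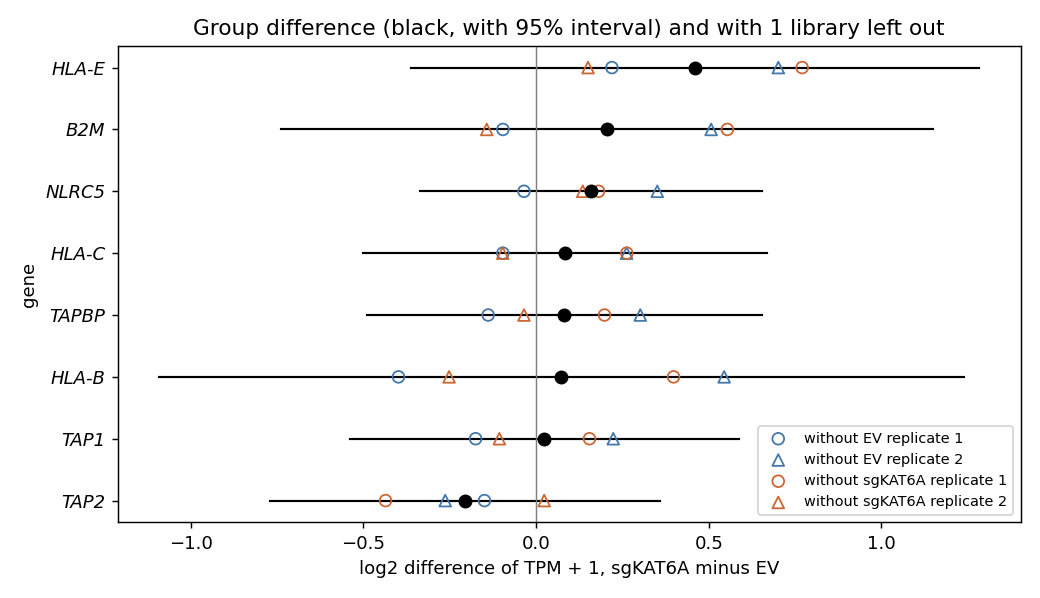
Log2 difference of TPM + 1 between sgKAT6A and EV for the 8 members tested (black points, with 95% intervals from limma), and the same difference with 1 library left out (open symbols, blue for an EV and orange for an sgKAT6A library, circles for replicate 1 and triangles for replicate 2). All 8 intervals include 0, and the open symbols lie on both sides of 0 for every gene except HLA-E.

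Gaps between the libraries of a group were set beside the difference between groups. For 8 of the 8 members tested, the larger of the within-group gaps exceeded the difference between group means, as it did for 76.3% of all genes tested. Taking the larger gap between single libraries against a difference of means favours the gap, so this count describes the values only. EV replicate 2 exceeded EV replicate 1 by a median of 0.42 on the log2 scale over the members, and sgKAT6A replicate 2 exceeded sgKAT6A replicate 1 by 0.31, against 0.07 and -0.03 over all genes tested. Replicate 2 was above replicate 1 in both groups for 7 of the 8 members, all but TAP2, and for 38.0% of all genes tested. The mean profile of the members was lowest in EV replicate 1 (-0.27 from the mean of the 4 libraries), at -0.10 in sgKAT6A replicate 1, at 0.16 in EV replicate 2 and highest in sgKAT6A replicate 2 (0.21). TAPBP and HLA-C lay closest to this profile, at root mean square distances of 0.03 and 0.04, and TAP2 farthest at 0.37.

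Markers of monocyte maturation varied between the same libraries. The 8 markers reported (CD14, ITGAM, ITGAX, CD86, CSF1R, FCGR1A, FCGR2A and CD68) summed to 204 and 380 TPM with EV and to 292 and 593 TPM with sgKAT6A, and replicate 2 was the higher library for all 8 in both groups. None was at 0 in any library. CD14, the lipopolysaccharide co-receptor of monocytes, was at 1.08 and 29.3 TPM with EV and 3.04 and 54.3 TPM with sgKAT6A. The median gap of the markers was 1.17 in EV and 1.06 in sgKAT6A. The summed markers and B2M, HLA-E and HLA-C put sgKAT6A replicate 2 highest and EV replicate 1 lowest, while HLA-B, TAP1, TAPBP and NLRC5 were highest in EV replicate 2. In bulk RNA a change in the number of mature cells and a change in RNA per cell cannot be told apart, and the part of maturation in the class I levels was not tested.

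**Figure D3:**
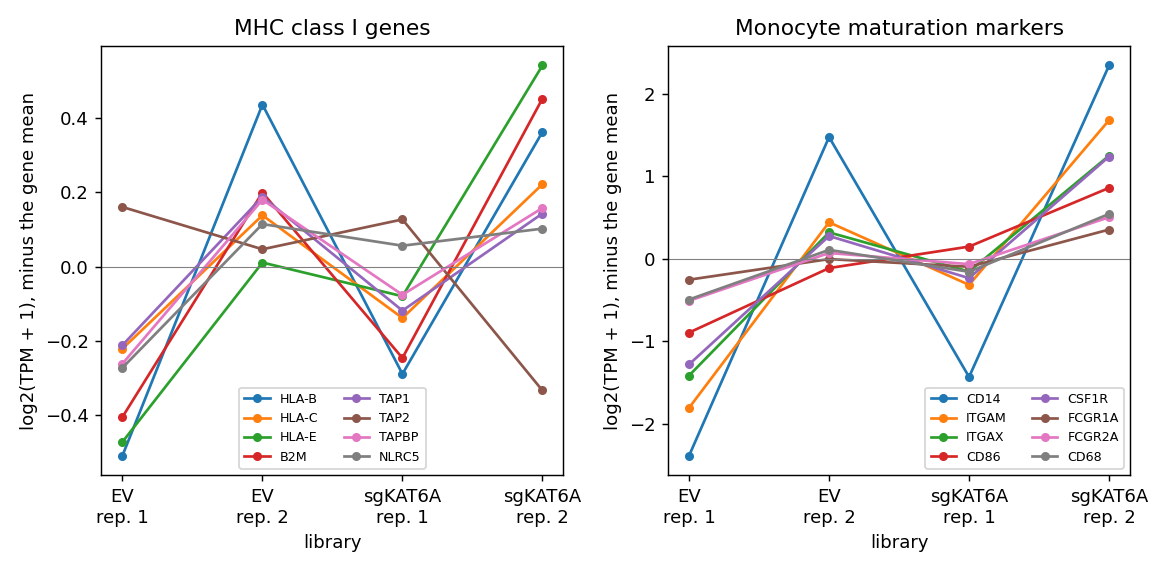
Log2(TPM + 1) minus the mean of each gene over the 4 libraries, for the 8 members tested (left) and the 8 markers of monocyte maturation (right), with lines only joining the points of a gene. The vertical scales differ. In both panels replicate 2 lies above replicate 1 within a group for every gene except TAP2.

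MHC class II genes, with their activator CIITA and the invariant chain CD74, also differed between the libraries of a group, with replicate 2 the higher for 7 of 8 in both groups. Of 12 listed, 8 were tested, 0 passed and 0 had groups without overlap, against 37.6% of all genes. The median gap of the 8 was 1.50 in EV and 1.96 in sgKAT6A, and their median group difference was 0.69. HLA-DRA, the invariant alpha chain of HLA-DR, was at 1.74 and 38.0 TPM with EV and 5.41 and 94.5 TPM with sgKAT6A. CIITA was at 0.517 and 2.57 TPM with EV and 1.32 and 6.70 TPM with sgKAT6A. The peptide-loading genes HLA-DMA and HLA-DMB gave differences of 0.98 ± 1.04 and 0.88 ± 1.52 (SE). The class II median was -0.42 without sgKAT6A replicate 2 and 1.73 without sgKAT6A replicate 1. No test compared the class I and class II lists.

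Some ratios between class I genes separated the groups although HLA-E, HLA-B, HLA-C and B2M each overlapped between them. The ratio of HLA-E to HLA-B in TPM was 1.95 and 1.41 in EV and 2.20 and 2.15 in sgKAT6A. The ratio of HLA-E to HLA-C was 4.72 and 5.12 in EV and 5.85 and 6.98 in sgKAT6A. B2M was at 3.99 and 3.93 times the summed HLA-B, HLA-C, HLA-E and HLA-F level in EV and at 3.60 and 3.82 times in sgKAT6A. HLA-E made up 57.9% and 52.5% of that sum in EV and 61.4% and 62.0% in sgKAT6A. HLA-E enters each of these ratios, so they are not separate observations. The ratio of TAPBP to TAP1, which does not contain HLA-E, also separated the groups. It was 3.63 and 3.70 in EV and 3.86 and 3.76 in sgKAT6A. All of these ratios were picked after their values were seen, and no test was made of them. The ratio of HLA-B to HLA-C was 2.42 and 3.62 in EV and 2.66 and 3.24 in sgKAT6A. It overlapped between groups, as did that of TAP1 to TAP2. Of all single genes tested, 37.6% had groups without overlap, and the share among ratios was not computed. HLA heavy chains are highly polymorphic and similar in sequence: 12.2% of the 31-base words of HLA-B, 15.9% of those of HLA-C and 10.3% of those of HLA-E occur in transcripts of other genes in GENCODE 29. How reads from the alleles of MOLM-13 were assigned was not tested.

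**Figure D4:**
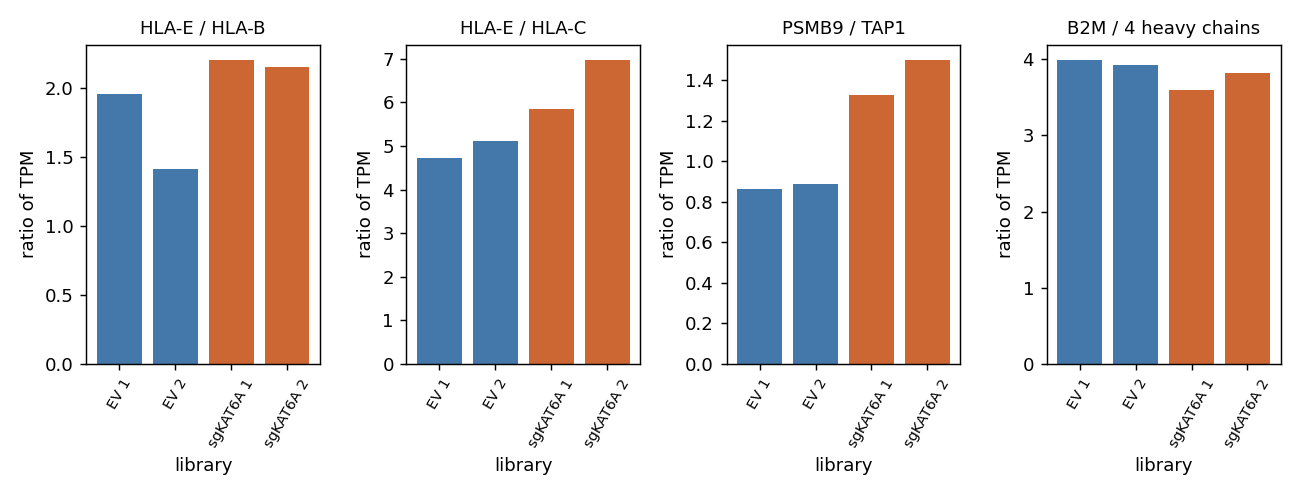
Ratios of TPM in each library, EV in blue and sgKAT6A in orange, for HLA-E over HLA-B, HLA-E over HLA-C, PSMB9 over TAP1, and B2M over the sum of HLA-B, HLA-C, HLA-E and HLA-F. Both sgKAT6A bars are above both EV bars in the first 3 panels and below them in the last.

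Among the peptide supply genes 5 differences were above 0 and 6 below. Of 11 listed and tested, 0 passed, 1 was higher and 1 lower in sgKAT6A without overlap, against 14.4% and 23.2% of all genes. The median difference was -0.04, and it turned to 0.04 without sgKAT6A replicate 2 and to 0.02 after rescaling to protein-coding genes. PSMB9, an interferon-inducible catalytic subunit of the immunoproteasome, was at 17.3 and 23.7 TPM with EV and 28.3 and 38.8 TPM with sgKAT6A, with a log2 difference of 0.69 ± 0.25 (SE, unadjusted p = 0.0491, adjusted p = 0.784 by limma). The other inducible subunits overlapped between groups: PSMB8 was at 130 and 133 TPM with EV and 135 and 114 TPM with sgKAT6A, and PSMB10 at 149 and 134 TPM with EV and 136 and 118 TPM with sgKAT6A. PSMB9 was at 0.863 and 0.887 times the level of its neighbour TAP1 in EV and at 1.32 and 1.50 times in sgKAT6A. PSMB9 alone had groups without overlap, so this ratio is not a separate observation, and it was not tested. Reads from the overlap of PSMB9 and TAP1 may also not be told apart. THOP1, a cytosolic peptidase that destroys peptides, was lower in both sgKAT6A libraries, at 54.9 and 46.5 TPM against 68.7 and 60.2 TPM with EV. The aminopeptidase LNPEP had a log2 difference of 0.27 ± 0.23 (SE).

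No listed gene of class I folding and quality control in the endoplasmic reticulum passed the test. Of 7 tested, 6 had a difference below 0, as did 6624 of all 12603 genes, and the median was -0.17. Without overlap 2 were lower and 1 was higher, against 23.2% and 14.4% of all genes, so that the count lower is near the background. CALR (calreticulin), which holds the heavy chain in the loading complex, was at 1065 and 1091 TPM with EV and 961 and 815 TPM with sgKAT6A. HSPA5, the general chaperone BiP, was at 192 and 190 TPM with EV and 173 and 123 TPM with sgKAT6A, and PDIA3, the disulfide isomerase paired with tapasin, gave -0.17 ± 0.16 (SE). TAPBPL (TAPBPR), a tapasin homolog that edits peptides, was the 1 on the higher side at 15.8 and 19.0 TPM with sgKAT6A against 11.7 and 14.6 TPM with EV. The median of this list was -0.34 without sgKAT6A replicate 1 and -0.004 without sgKAT6A replicate 2.

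Of 21 genes of class I transcription and interferon signalling tested, 0 passed, and the median was 0.25. Without overlap 6 were higher, against 14.4% of all genes, and 4 were lower, against 23.2%. IRF1, an interferon-induced activator of class I genes, was at 8.23 and 8.51 TPM with EV and 10.9 and 12.9 TPM with sgKAT6A, with a log2 difference of 0.46 ± 0.14 (SE, unadjusted p = 0.0321, adjusted p = 0.784 by limma). IRF9, the DNA-binding part of the type I interferon complex ISGF3, was at 7.58 and 11.8 TPM with EV and 12.7 and 22.2 TPM with sgKAT6A. The receptor kinases JAK2 (0.37 ± 0.18) and TYK2 (0.40 ± 0.21) were also on the higher side without overlap (log2 difference and SE). The 4 lower without overlap, named after their values were seen, were RFX5 (-0.20 ± 0.12), RFXAP (-0.14 ± 0.13), NFYA (-0.17 ± 0.14) and NFYB (-0.11 ± 0.13). RFXANK (0.04 ± 0.11) and NFYC (0.03 ± 0.14), the other listed subunits of the RFX and NF-Y complexes, overlapped between groups (log2 difference and SE). The median of these 21 genes was 0.01 without sgKAT6A replicate 2, 0.04 without EV replicate 1 and 0.37 without EV replicate 2.

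Other class I-like genes and their receptors gave no call either. Of 13 further class I and class I-like genes listed, 8 were tested and 0 passed. Without overlap 1 was higher and 0 were lower, against 14.4% and 23.2% of all genes. The median of the 8 was 0.18, and 0.13 to 0.51 with 1 library left out, the highest of these without sgKAT6A replicate 1. The 1 was ULBP2, a stress-induced ligand of the activating receptor NKG2D, at 1.22 and 0.694 TPM with EV and 1.87 in both sgKAT6A libraries. Its EV mean was 0.955 TPM, so it reached the filter of 1 TPM only through the sgKAT6A values. At such levels the precision of TPM is unknown. FCGRT, the heavy chain of the neonatal Fc receptor, which also pairs with B2M, was at 105 and 239 TPM with EV and 197 and 333 TPM with sgKAT6A. CD1D, which presents lipids, and MR1, which presents vitamin B metabolites, had differences of 0.53 ± 0.38 and 0.29 ± 0.31 (SE). Among 5 leukocyte immunoglobulin-like receptors listed, 4 were tested and 0 passed, with a median of 0.50. Leaving out sgKAT6A replicate 2 gave a median of 0.26 and leaving out sgKAT6A replicate 1 gave 0.74. LILRB1 and LILRB2, inhibitory receptors for class I molecules, were at 7.63 and 12.4 TPM and at 2.70 and 4.53 TPM with EV. In sgKAT6A they were at 11.4 and 16.8 TPM and at 5.0 and 12.1 TPM. LILRB2 and LILRA2 (30.5 and 33.0 TPM with EV, 39.5 and 54.0 TPM with sgKAT6A) were the 2 of 4 without overlap, against 37.6% of all genes, and LILRA1 gave 0.22 ± 0.36 (SE).

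The 5 protein-coding genes whose values over the 4 libraries lay closest to the mean profile of the members, of 10780 compared, were FGFR1OP2, AP3S2, ELMO2, AFTPH and CRYL1. Their root mean square distances on the log2 scale were between 0.002 and 0.02. FGFR1OP2, the closest, was at 18.6 and 25.6 TPM with EV and 21.2 and 26.3 TPM with sgKAT6A. With 4 libraries this measure describes likeness only.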

How the data were processed

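RNA of 2 EV and 2 sgKAT6A libraries of MOLM-13 was analysed, each assigned by its title. The table deposited by the authors gives TPM by gene symbol. Per the submitters' processing notes, Salmon and hg38 were used. The Salmon version, annotation and filters were not given in the sources used here. The values of EV replicate 1 sum to 1000000, and the totals of the other libraries are not given here. Values were used without further scaling as log2(TPM + 1), which understates the change of low genes, and 12603 genes averaging 1 TPM or more were tested. The groups were tested by limma 3.58.1 (R 4.3.3), with a trend of variance on mean (degrees of freedom: 2 residual, 1.98 prior). Tests were two-sided at a Benjamini-Hochberg adjusted p of 0.05 over the whole table. The fit was run on simulated data to check the code, and its power at the spread of these libraries is not given.

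The members, gene lists and motifs were chosen with earlier results of these data known. Besides the members, KAT6A, IRF1, PSMB8, PSMB9, PSMB10 and CIITA, up to 4 genes with the smallest unadjusted p were named per list, and the 5 protein-coding genes nearest the members' mean profile. Some listed genes are not reported here, and list counts, medians and sums are without them. Protein-coding genes were taken from RefSeq, which classed 12364 of the genes tested. Promoters came from RefSeq (GRCh38.p14), positions and 31-base words from GENCODE 29. The alternatives tried were 0.1 or 5 as the pseudocount, no filter or one at 5 TPM, scaling by median of ratios, by quantiles or to protein-coding genes, limma without a trend, leaving out each library, and a block for the replicate number. Figures were drawn with matplotlib 3.10.9.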

Additional observations from a re-analysis of the deposited data

How the results depend on the processing

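No member passed the threshold under any of the 13 alternatives run. Under the 9 that kept all libraries, 0 of 72 member differences changed sign. Changing the filter, dropping the trend or adding the replicate block leaves a member's difference as it was. The sign could therefore change only under the other pseudocounts and scalings. With 1 library left out, 0 genes passed in every case, the median of the members ran from -0.12 to 0.33, and the differences ran from -0.40 to 0.54 for HLA-B, -0.097 to 0.26 for HLA-C, 0.15 to 0.77 for HLA-E, -0.14 to 0.55 for B2M, -0.18 to 0.22 for TAP1, -0.44 to 0.023 for TAP2, -0.14 to 0.30 for TAPBP and -0.035 to 0.35 for NLRC5. Of the 26 other genes named under the rule for lists, 8 changed sign in this way: CIITA (-0.0062 to 1.73), HLA-DMA (-0.054 to 2.01), HLA-DMB (-0.65 to 2.40), HLA-DRA (-0.69 to 3.21), LILRA1 (-0.21 to 0.66), LNPEP (-0.0025 to 0.55), MR1 (-0.036 to 0.61) and PSMB8 (-0.20 to 0.036). Leaving out a library leaves 1 in its group, which is assumed to vary like the other group.

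The labels share replicate numbers but do not say that a number pairs libraries. Same-numbered libraries deviated together from their group means (r = 0.45 across 12603 genes, which are not independent). In the fit with a replicate block, 15 genes passed by limma against 0 without it, and 2417 against 459 had an unadjusted p under 0.05. None of the 15 was a member: HLA-E had an unadjusted p of 0.0051 and an adjusted p of 0.175, and B2M 0.0431 and 0.247, by limma with the block. Read depth is unknown, so the precision of low values such as HLA-F could not be given.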
